A study of Oryza sativa Japonica Group with 10 samples.

Results

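The genes examined move potassium and sodium in plant cells. There were 6 of them, taken by their locus identifiers: the potassium channel AKT1 (LOC_Os01g45990), the potassium transporters HAK1 (LOC_Os04g32920) and HAK5 (LOC_Os01g70490), the sodium transporters HKT2;1 (LOC_Os06g48810) and HKT1;5 (LOC_Os01g20160), and the sodium/proton antiporter SOS1 (LOC_Os12g44360). Of these 6 genes, 5 had a row among the 33486 rows of the count table and 4 had enough counts to be among the 19234 rows tested. No row of the table analysed here carries the identifier of HAK5, so no level is given for it. HKT2;1 had a row but did not pass the filter on low counts, and its levels are given without a test. The row of SOS1 has the ending -ext, which the labels and the table do not explain, and no member had rows both with and without that ending. The names AKT1, HKT2;1 and HKT1;5 are also in the deposited descriptions, while HAK1 is described there as a potassium transporter and SOS1 as sodium/hydrogen exchanger 7.

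The libraries came from cut root tips, with meristem and elongation zone, and from everything left of the root, called mature root. The plants were rice seedlings of the japonica cultivar Nipponbare (GSOR-100), moved at 12 days of age to hydroponics in Hoagland nutrient solution, with roots as well as shoots in the light. The 4 groups were root tip after 6 days in hydroponics (3 libraries), root tip after 2 days (3 libraries), mature root after 6 days (2 libraries) and mature root after 2 days (2 libraries). Each library was a pool of 6 plants, and the labels mention no salt treatment and no change of potassium supply. Plants of day 6 were older, so plant age, days in hydroponics and sampling occasion cannot be told apart. Total counts were 1428128 to 2560074 in tips on day 6, 986907 to 2001408 in tips on day 2, 2648858 to 3286439 in mature root on day 6 and 2161392 to 2776544 in mature root on day 2. A total of 3 counts stood for 0.809 to 2.69 CPM per library, where CPM are counts scaled to a common library total by the TMM method, so levels of a few CPM carry a large counting error.

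Potassium is the main inorganic cation of plant cells, and roots take it up through channels when it is plentiful and through proton-coupled carriers of the HAK family when it is scarce. AKT1 is the inward-rectifying Shaker channel of the root surface, and HAK1 and HAK5 are high-affinity carriers of rice roots. Sodium enters by other routes, among them HKT2;1, which takes up sodium in rice roots short of potassium. HKT1;5 takes sodium back from the xylem sap into the surrounding parenchyma, which keeps it out of the shoot, and SOS1 exports sodium from the cell in exchange for protons. Both uptake and export depend on plasma membrane proton pumps, and AKT1 and SOS1 are switched on by calcium sensors of the CBL family with their partner kinases, the CIPKs.

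The tissue labels were read against marker lists set by gene description. Rows described as Casparian, male sterility protein or glycerol-3-phosphate acyltransferase, called the suberin list here, were taken to mark the differentiated root. They summed to 47.7 to 91.6 CPM in tips on day 6 and 47.6 to 71.1 CPM in tips on day 2. In mature root they summed to 290 to 572 CPM on day 6 and 247 to 428 CPM on day 2. Most of that came from 1 row, LOC_Os08g44360, which averaged 285 CPM over the mature root libraries. Of the 8 tested rows of that list, 4 were called lower in the tip and 0 higher, where 9.02% of all tested rows were called lower. Of those 4, 3 passed the filter on low counts through mature root alone, and so could enter the test only as rows low in the tip. Cyclins A and B and replication genes, which mark dividing cells, had a median log2 fold change of 0.38 for tip over mature root, but edgeR called 0 of 20 tested rows, with 4 at an unadjusted p under 0.05 and 2 called higher by DESeq2, and the summed levels overlapped between tissues. Light-harvesting chlorophyll-binding proteins, which mark green tissue, summed to 44.2 to 136 CPM in tips on day 6 and 61.1 to 93 CPM in tips on day 2, against 2510 to 6140 CPM in mature root on day 6 and 2070 to 3850 CPM in mature root on day 2. All 13 tested rows of that list were called lower in the tip, 10 of which passed the filter through mature root alone, so the summed levels rather than these counts describe the tissues.

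The members with the clearest tissue difference were AKT1 and HKT1;5, whose tip libraries all lay below all mature root libraries. SOS1 was lower in the tip over both days, with overlap on day 2. HAK1 was called lower in the tip only in the comparison on day 6, by a call close to the threshold. Over both days 3 of the 4 tested members were called lower in tips, and 0 higher, by the quasi-likelihood test of edgeR with p-values adjusted by Benjamini-Hochberg over all tested rows and a threshold of 0.05. Among all tested rows 9.02% were called lower. On day 6 all 4 tested members were called lower, against 5.75% of all tested rows, and on day 2 HKT1;5 alone was called lower, against 1.07%. HKT1;5 passed the filter on low counts through the mature root libraries alone, so it could enter the test only as a gene that is low in the tip. In such bulk libraries, fewer cells of a type and less RNA per cell cannot be told apart.

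**Figure D1:**
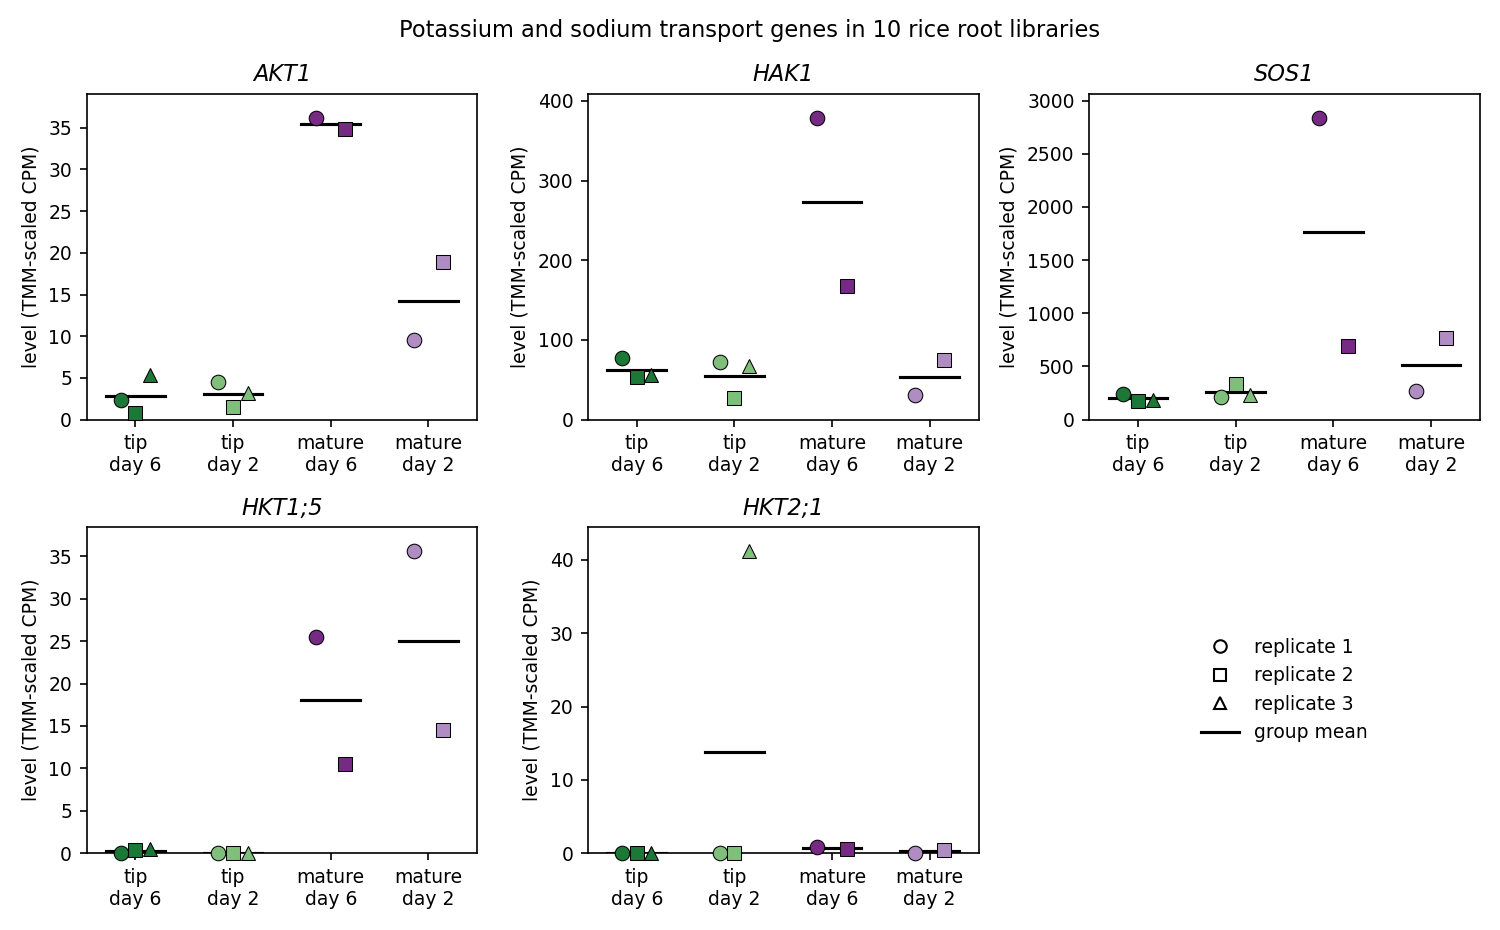
Levels of the 5 members with a row, in TMM-scaled CPM on a linear axis from 0, in each of the 10 libraries, with points for libraries, shapes for replicate numbers and lines for group means. AKT1 and HKT1;5 lie lower in every tip library than in every mature root library, SOS1 reaches 2840 CPM in 1 mature root library of day 6, and HKT2;1 is seen almost entirely in 1 tip library of day 2.

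AKT1, the inward potassium channel, was a low-level gene in the tip. It had 2.31, 0.782 and 5.39 CPM in tips on day 6 and 4.49, 1.47 and 3.21 CPM in tips on day 2, against 36.2 and 34.8 CPM in mature root on day 6 and 9.53 and 18.9 CPM in mature root on day 2. The lowest mature root library thus stood above the highest tip library, and the day 6 mature root libraries stood above those of day 2. The tip values rest on 30 reads in all over 6 libraries, and the mature root values on 279 reads over 4 libraries. Over both days the log2 fold change of tip over mature root was -2.91 (SE 0.55, edgeR, adjusted p = 0.00608), with all 6 tip libraries below all 4 mature root libraries. That call was kept in 10 of 10 fits that left out 1 library (highest adjusted p = 0.0314).

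On single days the AKT1 difference was measured with fewer libraries. On day 6 the log2 fold change was -3.62 (SE 0.78, adjusted p = 0.02), and on day 2 it was -2.2 (SE 0.79, adjusted p = 0.191), which did not pass. The day 6 call was lost when root tip replicate 2 of that day was left out (adjusted p = 0.0589), and likewise mature root replicate 1 or 2 of that day. Calls over all rows also fell in each of these fits. It was also lost when only the compared groups were fitted (adjusted p = 0.0516). The log2 value lay between -4.6 and -3.15 over the 10 fits that left out 1 library. A second row described as potassium channel AKT1, LOC_Os07g07910, had 1 read in tips and 1 read in mature root.

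HAK1, the high-affinity potassium carrier, had levels that overlapped between 3 of the 4 groups and higher levels in mature root on day 6. It had 77, 53.5 and 56.6 CPM in tips on day 6 and 71.8, 27.1 and 66.8 CPM in tips on day 2, against 379 and 168 CPM in mature root on day 6 and 31.4 and 75 CPM in mature root on day 2. Both day 6 mature root libraries stood above the other 8 libraries, which overlapped each other. On day 6 the log2 fold change of tip over mature root was -2.13 (SE 0.59, edgeR, adjusted p = 0.0493). On day 2 it was 0.06 (SE 0.6, adjusted p = 0.975), and over both days -1.04 (SE 0.42, adjusted p = 0.122), and neither passed.

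The day 6 call of HAK1 lay close to the threshold. It was lost in 9 of the 10 fits that left out 1 library, all but the fit without root tip day 2 replicate 2, with adjusted p between 0.0427 and 0.423 over the 10. The log2 value stayed between -2.61 and -1.46, and the value nearest to 0 came from the fit without mature root day 6 replicate 1. The fit of the compared groups alone gave an adjusted p of 0.0672.

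HAK1 also had the largest log2 fold change of day 6 over day 2 in mature root among the 4 tested members, 2.36 (SE 0.68). It did not pass edgeR's test (adjusted p = 0.291), in which 0 of the 19234 rows were called for time in mature root, a share of 0.0%, though 2072 rows stood at an unadjusted p under 0.05. DESeq2 called 375 rows in this contrast, 259 higher and 116 lower on day 6, and HAK1 was among those higher (log2 2.4, adjusted p = 0.0328). edgeR without the filter on low counts also called it (adjusted p = 0.0461), with 438 rows called higher and 298 lower of 33486. When 1 library was left out the log2 value lay between 1.69 and 3.13 and passed in 0 of 10 fits. In the tip the same comparison gave 0.17 (SE 0.54, adjusted p = 0.942), and all tip libraries of both days overlapped.

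SOS1, the sodium/proton antiporter, had the highest level per kilobase of the 5 members in every group but was uneven between the mature root libraries. It had 242, 176 and 185 CPM in tips on day 6 and 217, 333 and 228 CPM in tips on day 2, against 2840 and 695 CPM in mature root on day 6 and 268 and 769 CPM in mature root on day 2. All tip libraries lay in a narrow range, and the lowest mature root library fell inside it. Mature root day 6 replicate 1 was far above the rest. Over both days the log2 fold change of tip over mature root was -2.07 (SE 0.39, edgeR, adjusted p = 0.00616). With that library left out it was -1.41 and the call was lost, in a fit where calls over all rows also fell.

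On day 6 SOS1 had a log2 fold change of -3.14 for tip over mature root (SE 0.57, adjusted p = 0.0108), with all tip libraries below both mature root libraries. Leaving out the same library gave -1.82, and the call was lost, again in a fit where calls over all rows fell. On day 2 the value was -1 (SE 0.55, adjusted p = 0.392), which did not pass, and it lay between -1.58 and -0.05 when 1 library was left out. Day 6 over day 2 gave 1.77 in mature root (SE 0.63, adjusted p = 0.353) and -0.37 in tips (SE 0.5, adjusted p = 0.83). The mature root value passed without the filter on low counts (adjusted p = 0.0349) and did not pass with DESeq2. It lay between 0.46 and 2.72 when 1 library was left out, and 0.46 was the value without mature root day 6 replicate 1.

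**Figure D2:**
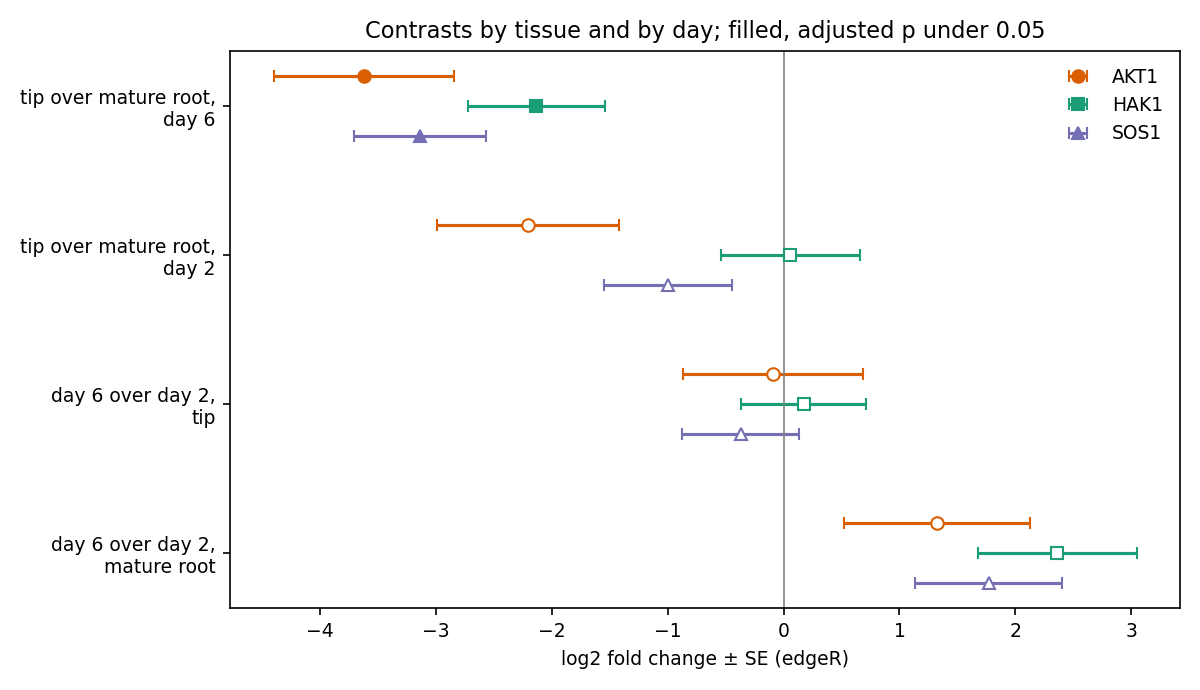
Log2 fold changes with standard errors from edgeR for AKT1, HAK1 and SOS1 in 4 comparisons, filled where the adjusted p is under 0.05. Tip over mature root on day 6 is filled for these 3 genes, at -3.62, -2.13 and -3.14, and day 6 over day 2 in mature root is above 0 for these 3 without passing.

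HKT1;5, which retrieves sodium from the xylem sap, was detected almost only in mature root. It had 0, 0.391 and 0.449 CPM in tips on day 6 and 0 CPM in each tip library of day 2, against 25.5 and 10.5 CPM in mature root on day 6 and 35.6 and 14.5 CPM in mature root on day 2. In reads, 2 fell in the 6 tip libraries together and 238 in the 4 mature root libraries, which made the summed level 111-fold lower in the tip, with an exact 95% counting interval from 30.5 to 924. On day 6 there were 2 reads in tips and 96 in mature root, which is 49.1-fold lower per unit of depth (interval 13.2 to 411). On day 2 there were 0 reads in tips and 142 in mature root, at least 39.5-fold lower in tips if 3 counts over the group are taken as the floor. These intervals cover counting error only.

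The edgeR test called HKT1;5 lower in the tip over both days (adjusted p = 0.000764), on day 6 (adjusted p = 0.0122) and on day 2 (adjusted p = 0.0142). HKT1;5 entered the test through the mature root libraries alone, so these calls add no support beyond its levels. The call over both days was kept in 10 of 10 fits that left out 1 library. The day 6 call was lost when mature root replicate 1 of that day was left out. The day 2 call was lost without any 1 of the tip libraries of day 2 (adjusted p between 0.0508 and 0.0549). Calls over all rows for the same day fell in each of these fits. Within mature root, HKT1;5 was the member whose mean was not higher on day 6. It averaged 18 ± 10.6 CPM on day 6 and 25 ± 14.9 CPM on day 2 (SD, n = 2 each), with overlapping libraries and a log2 fold change of -0.49 (SE 0.82, adjusted p = 0.893).

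HKT2;1, the sodium uptake carrier, was seen almost entirely in 1 library. Root tip day 2 replicate 3 held 77 reads, or 41.2 CPM, while each of the other 5 tip libraries held 0. Mature root had 2 and 2 reads on day 6 and 0 and 1 on day 2, which is at most 0.893 CPM. A count of 0 in a library allows up to 1.17 to 2.69 CPM in these tips, so levels below that were not detectable. Without that 1 library the tip held 0 reads in all, so no difference between tissues or days is drawn for HKT2;1. In the RefSeq gene table for assembly ASM3414082v1, HKT2;1 lies next to HKT2;4, a close relative of the same family, and how reads that fit both genes were assigned is not known here.

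Rows of that kind, with at least 50 reads in 1 tip library and 0 in the other 5, were few in the table of 33486 rows. There were 3 for root tip day 2 replicate 3, HKT2;1 among them, and between 1 and 7 for each of the other 5 tip libraries. The 3 other HKT rows were near the floor. HKT1;1 (LOC_Os04g51820) had 6 reads, all in root tip day 6 replicate 1, and 0 in mature root. HKT1;4 (LOC_Os04g51830) had 0 reads in tips and 3 in mature root, and HKT1;3 (LOC_Os02g07830) had 1 in tips and 3 in mature root. None of these 3 passed the filter, so HKT1;5 was the only HKT gene that could be tested.

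Set side by side per kilobase of exon, the scale on which levels of different genes can be compared, the members stood in the same order in 3 of the 4 groups. In tips on day 6 the mean levels were 31.3 CPM per kb for SOS1, 12.3 for HAK1, 0.826 for AKT1 and 0.101 for HKT1;5. In tips on day 2 they were 40.4 for SOS1, 10.9 for HAK1 and 0.893 for AKT1, with HKT1;5 at 0 reads. In mature root on day 6 they were 275 for SOS1, 54.1 for HAK1, 10.4 for AKT1 and 6.47 for HKT1;5. In these 3 groups no library of a gene overlapped those of its neighbour in the order. HKT2;1 is left out of it because its tip level rests on 1 library. In mature root on day 2 the mean levels were 80.8 for SOS1, 10.5 for HAK1, 9.01 for HKT1;5 and 4.15 for AKT1. In that last group the libraries of HAK1 (6.22 to 14.8 CPM per kb) overlapped those of HKT1;5 (5.22 to 12.8), and those of HKT1;5 overlapped those of AKT1 (2.78 to 5.52), so these neighbours did not differ beyond their spread. Among the 19234 tested rows the level of SOS1 ranked 200 from the top in mature root on day 6, and 2742 in tips on day 6. AKT1 in contrast stood above 7.54% of the tested rows in tips on day 6 and above 61.5% in mature root on day 6.

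The separation of tissues by library was read against that of all rows. On day 6 all 4 had every tip library below both mature root libraries, but so did 22.8% of all tested rows. On day 2 this held for AKT1 and HKT1;5, against 18.5% of all tested rows, and over both days together for the same pair, against 7.34%. HKT1;5 passed the filter on low counts through mature root alone, so its place in these counts was set by the filter. In mature root both day 6 libraries lay above both day 2 libraries for AKT1 and HAK1, which held for 22.0% of all tested rows. The AKT1 value there was a log2 fold change of 1.32 (SE 0.81, adjusted p = 0.606), and this was not called. For time in the tip, edgeR called 0.0% of all rows, with 2063 rows at an unadjusted p under 0.05 and 130 called by DESeq2, and neither tool called a member.

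Whether the tissue difference itself differed between days was tested with an interaction term. The value for HAK1 was -2.19 (SE 0.86, edgeR, adjusted p = 0.513), for SOS1 -2.14 (SE 0.8, adjusted p = 0.513) and for AKT1 -1.42 (SE 1.12, adjusted p = 0.681). HKT1;5 had the opposite sign, at 3.19 (SE 1.87, adjusted p = 0.581), with 2 reads in all tips. Negative values mean a tip level that was lower still, relative to mature root, on day 6. The same term called 0.0% of all rows, with 1821 at an unadjusted p under 0.05, and DESeq2 called 94 rows, none of them a member. The day 6 calls of HAK1, SOS1 and AKT1 are therefore not shown to differ from their day 2 values.

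**Figure D3:**
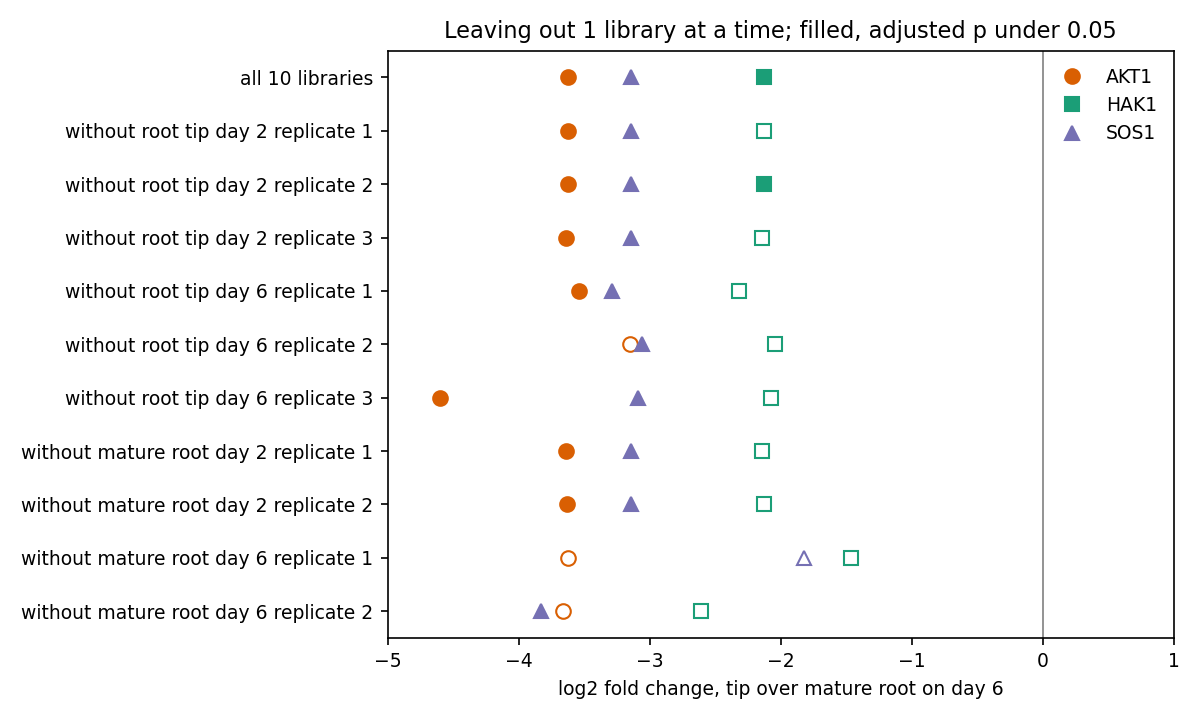
Log2 fold change of tip over mature root on day 6 for AKT1, HAK1 and SOS1 with all 10 libraries and with each library left out, filled where the adjusted p is under 0.05. All values lie below 0, and those of HAK1 are filled in 2 of the 11 fits. Calls over all rows fell in the fit without mature root day 6 replicate 1, so open points there do not by themselves show a gene's own change. The value of SOS1 itself moved from -3.14 to -1.82 in that fit.

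Mature root day 6 replicate 1, which held the highest HAK1 and SOS1 levels, was also the highest library for the summed level of 3 marker lists. So it was for proton pumps (2600 CPM), and for potassium transporters (1210 CPM) and cation/proton antiporters (3090 CPM), which include HAK1 and SOS1. It was not the highest for potassium channels, HKT genes, CBL sensors and kinases, cyclic nucleotide-gated channels, or cyclins and replication genes. The 3 secondary wall cellulose synthases, which mark lignifying xylem and fibres, summed to 60, 69.6 and 101 CPM in tips on day 6 and 127, 71.8 and 73.3 CPM in tips on day 2. In mature root they summed to 552 and 294 CPM on day 6 and 103 and 134 CPM on day 2. That order of the day 6 libraries came from CESA9 (LOC_Os09g25490) alone, with 452 CPM in replicate 1 and 150 CPM in replicate 2 on day 6, and 37.5 and 59 CPM in mature root on day 2. The others were lower in replicate 1 than in replicate 2 of mature root on day 6, CESA7 (LOC_Os10g32980) at 51.8 and 82.3 CPM and CESA4 (LOC_Os01g54620) at 48.2 and 61.5 CPM, and neither was called between tissues on day 6 (adjusted p = 0.185 and adjusted p = 0.315). The log2 fold changes of CESA9, -3.61 for tip over mature root on day 6 (SE 0.58, adjusted p = 0.00759) and 0.04 on day 2 (SE 0.56, adjusted p = 0.98), stood beside -2.13 and 0.06 for HAK1 and -3.14 and -1 for SOS1. Like SOS1, CESA9 lost its day 6 call when that library was left out (log2 -2.63), a fit in which calls fell over all rows. The light-harvesting list summed to 6140 and 2510 CPM in those day 6 libraries and the suberin list to 572 and 290 CPM. The part of these markers' tissues in the levels of HAK1 and SOS1 was not tested.

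The other genes of potassium and sodium transport were read from lists of descriptions, to place the members within their families. Of 24 rows described as potassium transporters, the HAK/KUP/KT family, 16 were tested. Over both days 1 was called lower in the tip and 0 higher, with a median log2 fold change of -0.41, against 0.05 over all tested rows. That is 6.25% of the list, where 9.02% of all tested rows were called lower. The row called was LOC_Os06g45940, which had 0 reads in each of the 6 tip libraries, against 11 and 26 reads in mature root on day 6 and 32 and 14 on day 2. With 3 counts over the tip group as the floor it was at least 25.9-fold lower there (adjusted p = 0.005), and it passed the filter on low counts through mature root alone. On day 6 HAK1 and LOC_Os06g45940 were called lower (adjusted p = 0.0493 and adjusted p = 0.0321), 12.5% of the list where 5.75% of all tested rows were called lower, and on day 2 edgeR called 0. The day 6 call of LOC_Os06g45940 was lost in 6 of 10 fits that left out 1 library (adjusted p up to 0.167).

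HAK1 moved through the ranks of its family by group. Its mean level per kilobase was the highest of the 24 rows in mature root on day 6, at 54.1 CPM per kb, and ranked 6 in tips on day 6, 5 in tips on day 2 and 7 in mature root on day 2. The first rank rests on mature root day 6 replicate 1, where HAK1 had 75.1 CPM per kb and LOC_Os07g48130 33.4, while in replicate 2 HAK1 had 33.2 and LOC_Os07g48130 59.9, so the libraries of these neighbours overlapped. The mean of LOC_Os07g48130, the next row, was 24.7 CPM per kb in tips on day 6 and 17 on day 2, against 46.6 in mature root on day 6 and 28.6 on day 2. Its log2 fold change of tip over mature root was -0.83 (SE 0.34, adjusted p = 0.131), which did not pass. LOC_Os03g21890 and LOC_Os02g49760-ext stood highest in tips on day 2, at 28.3 and 26.9 CPM per kb, with 8.46 and 15 in mature root on day 6. Neither differed between tissues by the test (adjusted p = 0.173 and adjusted p = 0.5). Reads of close relatives in this family may be shared, so levels of single rows are uncertain.

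**Figure D4:**
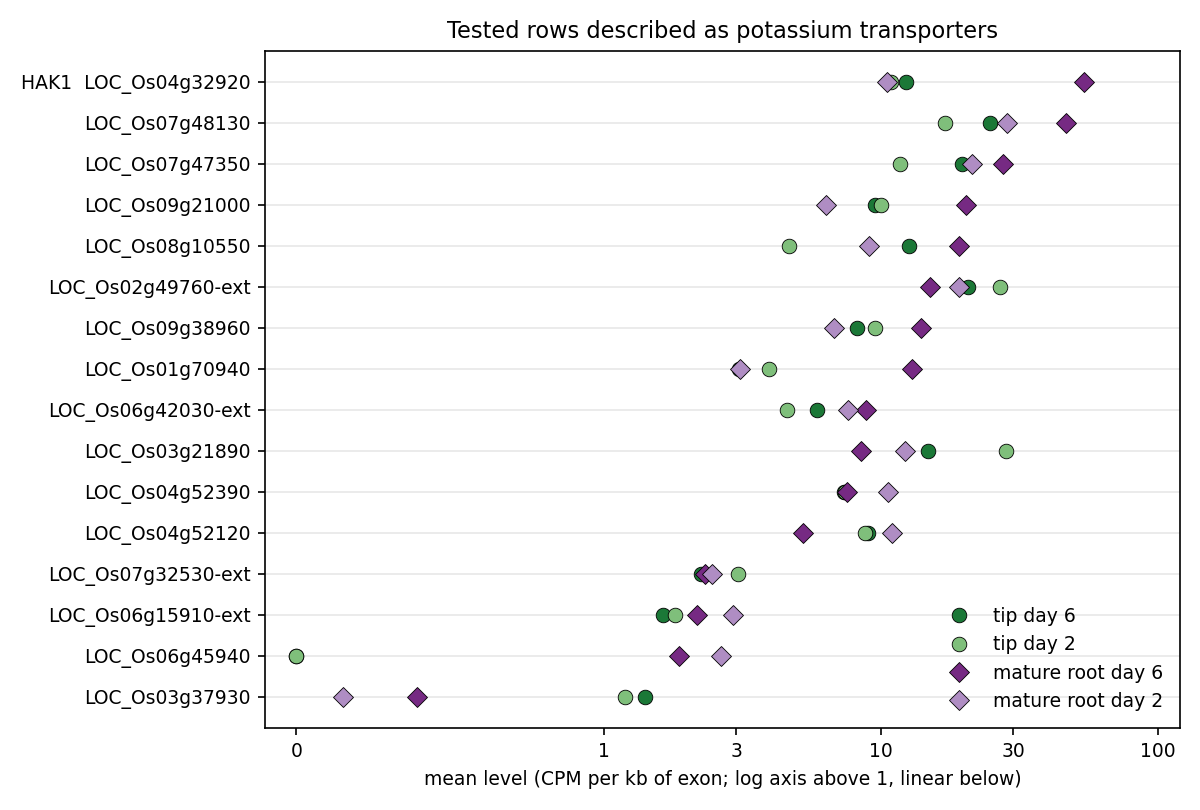
Mean level in each group, in CPM per kb of exon, of the 16 tested rows described as potassium transporters, ordered by the level in mature root on day 6, on an axis that is logarithmic above 1 and linear below. HAK1 is at the top with a mean of 54.1 in mature root on day 6 and between 10.5 and 12.3 in the other 3 groups, and LOC_Os06g45940 is at 0 in both tip groups.

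Of 12 rows described as potassium channels, 6 were tested and AKT1 was the only one called by edgeR over both days, while DESeq2 called 2 lower, with a median log2 fold change of -1.26 over the 6. That is 16.7% of the list, where 9.02% of all tested rows were called lower. Both rows described as SKOR, the outward channel that in Arabidopsis loads potassium into the xylem, had lower means in the tip without passing. The mean of LOC_Os04g36740-ext was 48 ± 31.4 CPM over 6 tip libraries (SD), against 124 ± 75 CPM over 4 mature root libraries (log2 -1.37, SE 0.48, adjusted p = 0.0842). It passed with DESeq2 (adjusted p = 0.0374), without the filter on low counts (adjusted p = 0.0248) and without root tip day 6 replicate 3 (adjusted p = 0.0451). LOC_Os06g14030 averaged 13.5 ± 8.24 CPM in tips and 30.3 ± 10.9 CPM in mature root (adjusted p = 0.108), and passed without root tip day 6 replicate 1 (adjusted p = 0.0377). LOC_Os07g01810, described as a potassium channel protein, had the higher mean in tips without passing, at 22.4 ± 35.2 CPM in tips and 4.72 ± 2.29 CPM in mature root (adjusted p = 0.135, and 0.0229 without the filter on low counts). Its tip mean rested on root tip day 2 replicate 2, at 93.8 CPM, with 3.91 to 15.3 CPM in the other 5 tips.

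Among 21 rows described as cation/proton antiporters, 9 were tested, and SOS1 was the only one called over both days, 11.1% of the list against the same 9.02%, with a median log2 fold change of -0.47. SOS1 had the highest mean level per kilobase of the 21 in every group. The next in mature root on day 6 was LOC_Os12g42200, described as ATCHX, the cation/proton exchanger family, at 35.5 CPM per kb. It had 47.7, 12.9 and 21.1 CPM in tips on day 6 and 44.9, 62.3 and 38.5 CPM in tips on day 2, against 111 and 103 CPM in mature root on day 6 and 12.7 and 35.3 CPM on day 2. On day 6 the tip libraries thus lay below those of mature root and on day 2 above them, with log2 fold changes of -1.99 on day 6 (SE 0.64, adjusted p = 0.0808) and 1.02 on day 2 (SE 0.67, adjusted p = 0.483), and neither passed. The day 6 value passed with DESeq2 (adjusted p = 0.0222), without the filter on low counts (adjusted p = 0.0446) and without root tip day 6 replicate 1 (adjusted p = 0.0403).

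The proton pumps supply the gradient that carriers and antiporters use. Of 11 tested rows 2 were called lower in the tip over both days and 0 higher, 18.2% of the list where 9.02% of all tested rows were called lower, with a median log2 fold change of 0.33. LOC_Os04g56160, a plasma membrane ATPase, averaged 448 ± 112 CPM over 6 tip libraries (SD) and 985 ± 204 CPM over 4 mature root libraries, with no overlap and a log2 fold change of -1.12 (SE 0.25, adjusted p = 0.0146). Leaving out replicate 2 of mature root on day 2 (adjusted p = 0.0581) or replicate 1 on day 6 (adjusted p = 0.0653) ended that call. LOC_Os02g55890, a proton pyrophosphatase, the class of pump found at the vacuole, averaged 16 ± 5.5 CPM in tips and 117 ± 60.8 CPM in mature root, a log2 fold change of -2.82 (SE 0.49, adjusted p = 0.00405). Other proton pyrophosphatases had higher tip means without passing, such as LOC_Os02g09150-ext at 49.8 ± 14.7 CPM in tips and 22.3 ± 6.56 CPM in mature root (adjusted p = 0.0938, and 0.0372 with DESeq2).

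The list of CBL calcium sensors and of kinases of the class that holds the CIPKs had 38 tested rows, 3 of them called lower in the tip over both days and 0 higher, with a median log2 fold change of -0.42. The share of 3 in 38 is near the 9.02% of all tested rows called lower. LOC_Os07g05620, a kinase of this class, had 18.5, 9.38 and 13.9 CPM in tips on day 6 and 21.6, 7.33 and 11.8 CPM in tips on day 2. In mature root it had 66.1 and 55.3 CPM on day 6 and 44.5 and 71.6 CPM on day 2, so the tissues did not overlap (log2 -2.12, SE 0.42, adjusted p = 0.00771). LOC_Os03g43440-ext, of the same class, averaged 20.2 ± 10.6 CPM in tips and 96.6 ± 53.8 CPM in mature root (adjusted p = 0.00863), and LOC_Os01g18800-ext averaged 7.29 ± 5.57 CPM in tips and 27.6 ± 19.5 CPM in mature root (adjusted p = 0.0287). The last of these calls was lost in 7 of 10 fits that left out 1 library, all but those without root tip day 2 replicate 1, root tip day 6 replicate 1 or mature root day 2 replicate 2. No row described as calcineurin B was among the 3. Of 12 tested cyclic nucleotide-gated channels, a family of cation channels of low selectivity, edgeR called 0 over both days, with 1 at an unadjusted p under 0.05 and 1 called lower by DESeq2.

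The described rows whose log2 levels followed each member most closely over the 10 libraries were taken from 12836 rows of at least 10 CPM on average. Pearson's r is given as a description, since all rows share the same libraries and tissues. For AKT1 the closest was LOC_Os04g32110, an ACT domain gene, with r = 0.964 and group means of 13.8 CPM in tips on day 6, 13.6 in tips on day 2, 131 in mature root on day 6 and 74.5 in mature root on day 2. For HAK1 it was LOC_Os02g10520, a subtilisin homologue, with r = 0.964 and 891 and 107 CPM in the mature root libraries of day 6, against 4.45 and 14 CPM on day 2. For HKT1;5 it was LOC_Os05g49900, a 3-ketoacyl-CoA synthase, with r = 0.994 and 1 read in tips. For SOS1 it was LOC_Os08g33750-ext, a myb-like gene, with r = 0.976 and 446 and 129 CPM in mature root on day 6 and 48.6 and 93.9 CPM on day 2. The rows nearest to HAK1 and SOS1 were also highest in mature root day 6 replicate 1. Choosing rows by r over the same libraries favours this, so it is no separate finding.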

How the data were processed

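The authors deposited whole-number counts per gene row for 10 libraries, with exon number and summed exon length. Per the file headers there is 1 column per library, and the values are whole numbers that sum to different totals, so they were taken as raw. Bowtie, SAMtools 0.1.12a, TopHat 1.3.1 and Cufflinks 1.0.3 are named in the submitters' processing notes. Which genome build was used, what counted the reads and whether strand was used is not stated there, so reads of overlapping or antisense genes cannot be told apart. Per the labels' protocols, libraries were polyA-selected and amplified by 18 cycles of PCR. No molecular identifiers are mentioned, so counting intervals cover counting error only.

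Rows were filtered with filterByExpr (minimum count 10, minimum total 15), scaled by TMM and fitted in edgeR 4.0.16 (R 4.3.3) by the quasi-likelihood test, with 1 mean per group over all 10 libraries. Benjamini-Hochberg adjustment ran over all 19234 tested rows, and rows with an adjusted p under 0.05 were called. P-values measure the spread between these pools (independent biological replicates, per the labels). Replicate pairs differed beyond sampling noise (chi-square per degree of freedom 17.5 to 35.6).

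Named genes were the members, up to 4 rows per list with the smallest p between tissues, the smallest p per time contrast, and the 3 rows most correlated with each tested member, of which the closest is described. Rows named beside these, which were chosen after their values were seen, are the family's highest rows per kilobase, LOC_Os03g21890 and LOC_Os02g49760-ext, the near-silent LOC_Os07g07910, and the HKT genes HKT1;1, HKT1;3 and HKT1;4. The members and lists were chosen with earlier results of these data known. Alternatives were DESeq2 1.42.0, other scalings and filters, robust dispersion, a replicate block, fits restricted to the groups compared, and fits without each library in turn. No sequence table was used here.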

Additional observations from a re-analysis of the deposited data

Results flagged for a closer look

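Values far from the rest of their group were looked for in each tissue, over 22 of the rows named above, which gave 42 sets, and 6 were found. The limits used mark about 1 in 20 sets by chance only for normal values in rows not picked by their values. Counts near 0 are not normal, a single value above 0 among zeros always passes, and some rows were chosen after their values were seen. The number found is therefore not read against that share. HKT2;1 had 41.2 CPM in root tip day 2 replicate 3 and 0 in the other 5 tips. HKT1;1 (LOC_Os04g51820) had 4.62 CPM in root tip day 6 replicate 1, from 6 reads, and 0 in the other 5 tips. LOC_Os07g01810, a potassium channel protein, had 93.8 CPM in root tip day 2 replicate 2. LOC_Os02g10520, the subtilisin homologue whose pattern was nearest to HAK1, had 891 CPM in mature root day 6 replicate 1. LOC_Os05g49900, the 3-ketoacyl-CoA synthase nearest to HKT1;5, had 0.449 CPM in root tip day 6 replicate 3, which is 1 read, and 0 in the other 5 tips. CESA4 (LOC_Os01g54620) had 48.9 CPM in root tip day 6 replicate 3.

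For 3 further rows the libraries did not overlap in either of a pair of comparisons and the direction was opposite. The share of all tested rows with such a pattern is not given here, so this number is not read as a result. LOC_Os12g42200, described as ATCHX, was lower in the tip on day 6 and higher in the tip on day 2, and the interaction term was -3.01 on the log2 scale (SE 0.94, edgeR, adjusted p = 0.513). LOC_Os08g33750-ext, the myb-like gene nearest to SOS1, and CESA9 (LOC_Os09g25490) were lower on day 6 than on day 2 in the tip and higher in mature root. Their interaction terms were -2.4 (SE 0.81, edgeR, adjusted p = 0.513) and -3.65 (SE 0.82, adjusted p = 0.513). LOC_Os08g33750-ext was picked by its likeness to SOS1 and LOC_Os12g42200 by its small p for time in mature root. Their patterns were thus in part set by that choice. None of these 3 differences passed with edgeR as used here, while that of CESA9 passed with DESeq2 (adjusted p = 0.0106) and without the filter on low counts (adjusted p = 0.0115).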

How the results depend on the processing

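Over both days the calls of AKT1 and HKT1;5 were kept under all 7 other settings and in 10 of 10 fits that left out 1 library. SOS1 was called under the same 7 settings, with log2 values from -2.42 to -1.41 when 1 library was left out. Of the 4 tested members 2 were called on day 6 when only the compared groups were fitted, and 0 to 4 when 1 library was left out. On day 2 the numbers were 0 and 0 to 1. For day 6 over day 2 in mature root 2 members were called without the filter on low counts, where 438 rows were called higher and 298 lower of 33486. DESeq2 called 1 member in that contrast, with 259 rows called higher and 116 lower of 19234. HAK1 on day 2 turned to -0.17 with the replicate block and lay between -0.45 and 0.82 when 1 library was left out. Day 6 over day 2 lay between -1.08 and 0.38 for AKT1 in tips, between -0.16 and 0.4 for HAK1 in tips, and between -1.21 and 0.31 for HKT1;5 in mature root. With all libraries these 4 values were within 1 SE of 0, and the cause was not tested. With the replicate block HAK1 on day 6 also missed the threshold (adjusted p = 0.0976), and no other call of a member was lost. For rows named beside the members these settings were applied after seeing the data. LOC_Os02g49760-ext turned to -0.03 with the replicate block, and CESA9 on day 2 lay between -0.26 and 0.4 when 1 library was left out. With the block LOC_Os04g56160 (adjusted p = 0.0662), LOC_Os01g18800-ext (adjusted p = 0.0778) and LOC_Os06g45940 on day 6 (adjusted p = 0.102) lost their calls. Same-numbered libraries deviated from their group means with correlations between -0.0447 and 0.023, which shows no pairing by number. In groups of 2 libraries the deviations mirror each other, so these values cannot exclude that same-numbered libraries came from the same plants. Over all rows and both days 611 were higher and 1734 lower in the tip, against 276 and 990 with the replicate block, 1214 and 2355 by DESeq2 and 1324 and 2739 without the filter. On day 6 there were 255 and 1106, against 66 and 513 with the block, 905 and 1836 by DESeq2, 940 and 2041 without the filter and 30 and 566 with only the compared groups. On day 2 there were 16 and 205, against 9 and 126, 237 and 797, 487 and 1247 and 0 and 4 under the same settings. Summing rows with and without the ending -ext was not run, as no member has both. Leaving out a mature root library leaves 1 in its group, which is then assumed to vary like the others. Over both days and on day 6, calls over all rows fell in each such fit. A lost call alone thus does not tell a gene's own change from this general loss. For SOS1 over both days the log2 value itself moved from -2.07 to -1.41 without mature root day 6 replicate 1. The low totals limit AKT1 and HKT1;5 in tips to a few reads per library.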
